A study of Mus musculus with 2 samples.

Results

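Rab genes encode the small GTPases that mark membranes inside the cell and decide which vesicles move, tether and fuse. Members were the protein-coding genes with a symbol made of Rab, a number and at most 1 letter and 1 further digit that had a read in both libraries, and 44 of the 59 such genes in the GENCODE M21 annotation met this rule. The data are long-read RNA sequencing of heart tissue from female B6CASTF1/J mice aged 2 months, a first-generation hybrid of C57BL/6 and CAST/EiJ. There was 1 group, heart, with 2 biological replicates of 2 µg total RNA each, so values are compared between the libraries and between genes within them. The sample labels gave the animals different numbers but the library text and the donor identifier were shared, so whether 2 animals were sampled is not settled, and the spread between the replicates may be technical. All tissue was bulk, so fewer cells of a type and less RNA per cell cannot be told apart.

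A Rab protein works as a switch. Bound to GTP it sits on a membrane and recruits effectors such as motors, tethers and lipid kinases, and bound to GDP it is drawn back into the cytosol by a GDP dissociation inhibitor. Exchange factors load GTP, GTPase-activating proteins end the signal, and a lipid chain that Rab geranylgeranyl transferase adds to cysteines near the C-terminus holds the protein on the membrane. In cardiomyocytes Rab traffic is known for delivering ion channels, receptors and glucose transporters to the surface and for autophagy and mitochondrial turnover.

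The coding ends hold the cysteine codons that are known, as background, to encode sites of lipid attachment, which was not measured. The enzyme and the kind of lipid chain were not examined for any member. Each member's leading annotated transcript, the annotated model with most reads, was taken from GENCODE M21 on GRCm38 (mm10). All 44 leading models were protein-coding, and their coding sequences ran from 582 to 843 bases with a median of 643.5. Every one of the 44 had at least 1 cysteine codon within the last 5 codons. The last 15 coding bases of 8 members are printed to show the 6 arrangements, with 2 members each for the 2 commonest, and capitals mark the cysteine codons.
Rab2a: gggggaggcTGCTGT
Rab10: aagagcaagTGCTGC
Rab7: gaaagcTGCagtTGT
Rab14: gaaggcTGTggcTGC
Rab11b: TGCTGCcagagcctg
Rab5a: cagTGTTGTagtaac
Rab20: tccgggTGTTGTgcc
Rab8a: cggTGCagtctcctg
Cysteine in both of the last 2 codons, as in Rab2a and Rab10, was found in 13 members, which held 41.0% of the Rab reads in replicate 1 and 42.0% in replicate 2. Another 13 members, with Rab7 and Rab14 among them, had cysteine in the last and third-last codons and held 22.6% and 23.3%. The fourth-last codon alone carried it in 7 members with 15.1% and 13.4% of the reads, and the fifth-last with the fourth-last in 4 members, Rab11b included, with 15.2% and 15.1%. The remaining arrangements were the fourth-last with the third-last codon in 5 members and the third-last with the second-last in 2, Rab20 and Rab34. Pairs of cysteines at or near the end are known to take 2 lipid chains, and an ending with 1 cysteine in the fourth-last place is known to take 1.

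Alternative exons in Rab6a and Rab28 and a kept intron in Rab24 fell within the coding sequence, and the sequences that differ are given here for use with the read shares that follow. All sequences printed here and above are those of GRCm38. Whether the CAST/EiJ alleles of these hybrid mice carry the same bases was not examined. Rab6a has 2 exons of 106 bases that replace each other, at chr7:100629838-100629943 in Rab6a-201 and at chr7:100629666-100629771 in Rab6a-202, plus strand, with capitals at the 30 bases that differ.
Rab6a-201 exon: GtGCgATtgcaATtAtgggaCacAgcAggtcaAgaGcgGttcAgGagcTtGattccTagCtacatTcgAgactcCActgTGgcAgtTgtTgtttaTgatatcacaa
Rab6a-202 exon: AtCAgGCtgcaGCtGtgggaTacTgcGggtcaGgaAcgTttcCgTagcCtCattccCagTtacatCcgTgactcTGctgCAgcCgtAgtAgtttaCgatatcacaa
Rab28 ends in different codons according to whether a 95-base exon at chr5:41626987-41627081 is included, as in Rab28-203, or skipped, as in Rab28-201, whose last coding bases lie at chr5:41625770-41625862. Both are on the minus strand, and capitals mark the cysteine codon and the stop codon.
Rab28-203 exon: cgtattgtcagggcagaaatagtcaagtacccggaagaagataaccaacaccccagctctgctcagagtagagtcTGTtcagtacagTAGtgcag
Rab28-201 end: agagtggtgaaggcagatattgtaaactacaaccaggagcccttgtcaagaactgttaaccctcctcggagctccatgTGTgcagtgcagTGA
Rab24 kept intron 5 in some reads (chr13:55320554-55320744, minus strand), and capitals mark the splice dinucleotides and the first stop codon in the frame of Rab24-201.
Rab24 intron: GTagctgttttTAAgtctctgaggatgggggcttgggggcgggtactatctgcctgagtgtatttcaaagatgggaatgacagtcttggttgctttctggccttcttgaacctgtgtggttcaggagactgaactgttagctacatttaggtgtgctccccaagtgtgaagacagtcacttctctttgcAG

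Each deposited value is a count of the long reads assigned to 1 transcript model, and a gene's models were summed here. Replicate 1 had 859191 reads and replicate 2 had 707758 reads on annotated genes, and a level is the reads of a gene per 1000000 such reads (CPM). A long read stands for 1 transcript whatever its length, so CPM was not divided by length, although long transcripts may be read less often and leading Rab models ran from 761 to 9456 bases. The part of length in the levels was not tested. A single read equals 1.16 CPM in replicate 1 and 1.41 CPM in replicate 2. A gene with 0 reads could still have a level of 3.49 CPM in replicate 1 or 4.24 CPM in replicate 2, the worth of 3 reads. Intervals, floors and p-values cover counting error only and have no term for variation between libraries. Whether molecular identifiers were used is not given in the sources used here, so reads copied from 1 molecule could not be told apart. All 8 cardiomyocyte markers were read in both libraries, with a summed level of 50117 CPM in replicate 1 and 52726 CPM in replicate 2. The lung markers Sftpc, Sftpb and Scgb1a1 and the liver markers Alb and Apoa1 were at 0 in both, and the third liver marker, Ttr, had 1 read in replicate 1. All 5 endothelial, 5 fibroblast, 5 macrophage and 4 smooth muscle and pericyte markers were present. The 5 red cell markers summed to 32227 CPM in replicate 1 and 29577 CPM in replicate 2, the second-highest sum after cardiomyocytes. The summed level of the 4 adipocyte markers, 1 of which (Lep) was at 0, was 112.9 CPM in replicate 1 and 45.2 CPM in replicate 2. Its part in the Rab values was not tested.

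Rab transcripts made up a small and, between the libraries, similar share of the heart transcriptome. The 44 members held 3299 reads in replicate 1, or 0.384% of the reads of annotated genes (Wilson 95% interval 0.371 to 0.397), and 2812 reads in replicate 2, or 0.397% (0.383 to 0.412). The intervals overlapped. The median member stood at 24.5 CPM, against 19.5 CPM for the protein-coding genes read in both libraries. Of the members, 12 averaged at least 100 CPM (27.3%, against 13.7% of protein-coding genes), 19 averaged 10 to 100 CPM and 13 less. The 10 highest members held 74.4% of the Rab reads in replicate 1 and 73.3% in replicate 2, and the same 10 genes were highest in each library.

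**Figure D1:**
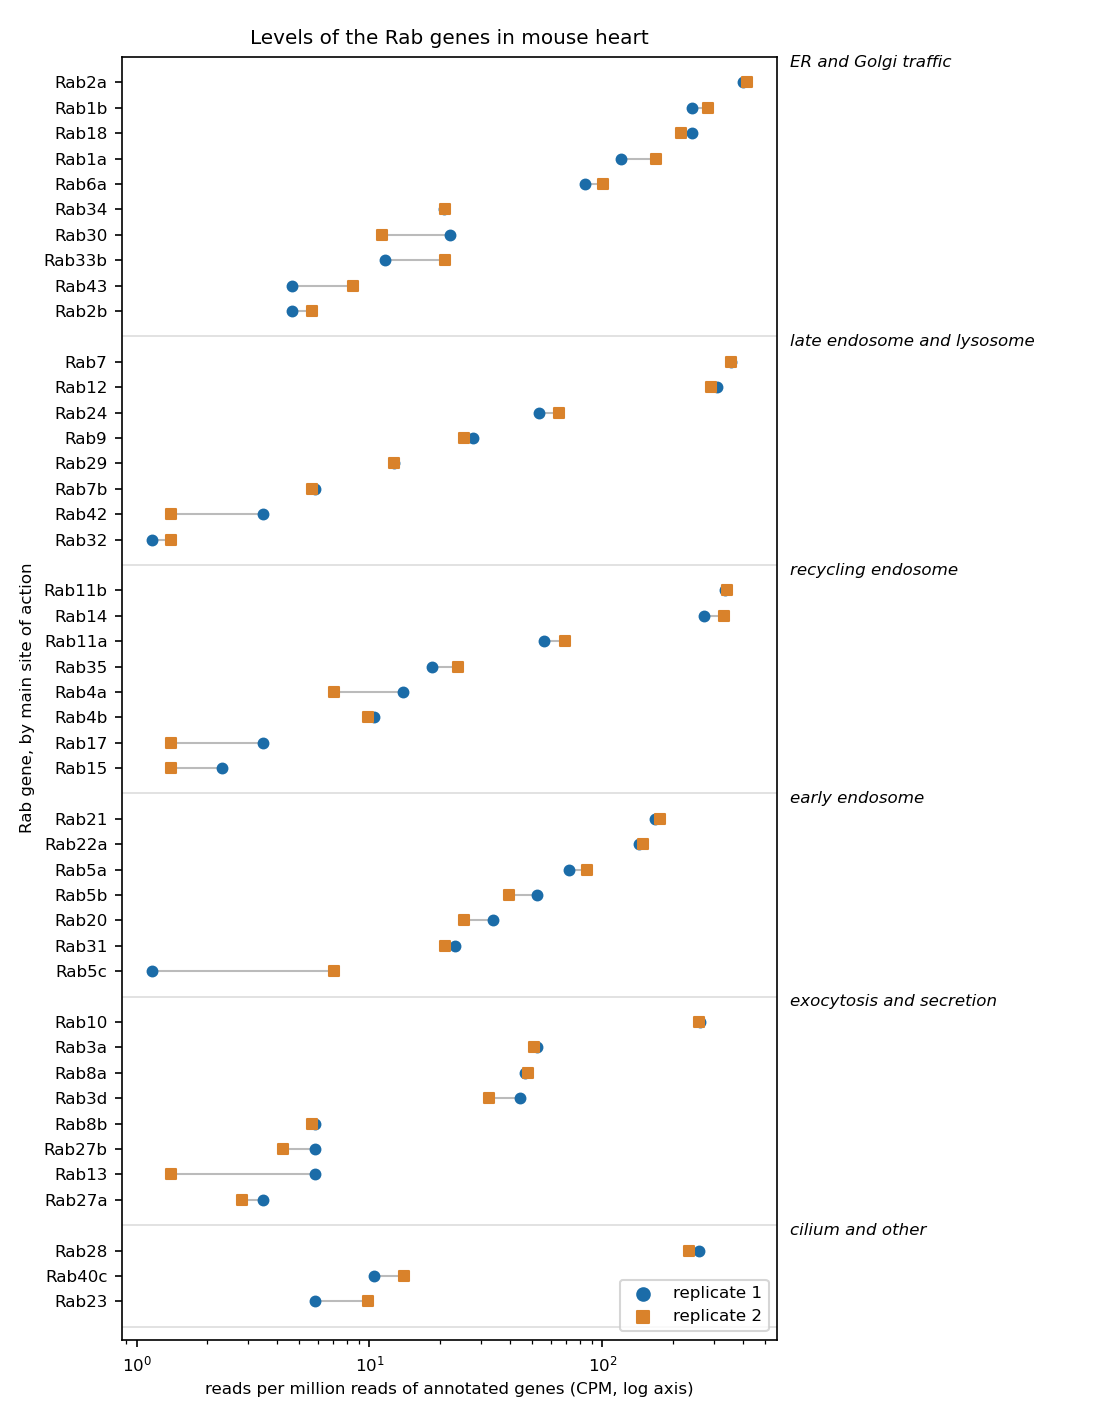
Level of each of the 44 Rab genes in CPM of the reads of annotated genes (log axis), with a circle for replicate 1 and a square for replicate 2, grouped by main site of action. With all models counted, Rab2a is highest at 403 and 418 CPM, and the points lie farthest apart for genes with few reads such as Rab5c and Rab13.

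Genes of traffic between the endoplasmic reticulum (ER) and the Golgi were the most abundant group, with 10 members and 1207 ± 72.0 CPM in sum (SD, n = 2). Rab2a, which acts on membranes between ER and Golgi, was the highest of all members when all models were counted. It had 346 reads (403 CPM) in replicate 1 and 296 reads (418 CPM) in replicate 2 (chr4:8535644-8607778, plus strand). On annotated models alone Rab2a had 236 reads in each library, against 283 and 229 for Rab7 and 277 and 230 for Rab11b. Its first place on those models thus held in replicate 2 only. Rab1b and Rab1a, which drive transport from the ER to the Golgi, had 208 and 201 reads (Rab1b, 242 and 284 CPM in replicates 1 and 2) and 103 and 120 reads (Rab1a, 119.9 and 169.5 CPM). Rab18, found on lipid droplets and the ER, had 209 reads in replicate 1 and 154 in replicate 2 (243 and 218 CPM). Rab6a, which runs retrograde carriers at the Golgi, had 72 and 71 reads (83.8 and 100.3 CPM). The Golgi Rabs of low level were Rab34 with 18 and 15 reads (20.9 and 21.2 CPM), Rab30 with 19 and 8, Rab33b with 10 and 15 and Rab43 with 4 and 6 in replicates 1 and 2. The group thus rested on 5 genes that exceeded 80 CPM in each library, and its other 5 members stayed under 25 CPM.

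Late endosome and lysosome Rabs had 8 members and 765 ± 8.31 CPM in sum, with 770 CPM in replicate 1 and 759 CPM in replicate 2. Recycling endosome Rabs had 715 and 788 CPM, so the order of these 2 groups changed between the libraries. Rab7, the Rab of late endosomes and their fusion with lysosomes, had 306 reads (356 CPM) in replicate 1 and 251 reads (355 CPM) in replicate 2 (chr6:87999106-88045270, minus strand). Rab12, which acts in the degradation of the transferrin receptor and is a substrate of the kinase LRRK2, had 266 and 207 reads (309.6 and 292 CPM; chr17:66494512-66519729, minus strand). These 2 genes held most of the group, and Rab7 had almost the same level in both libraries. Rab24, linked to autophagy, had 46 reads in each library (53.5 and 65.0 CPM). Rab9, which returns cargo from late endosomes to the trans-Golgi network, had 24 and 18 reads (27.9 and 25.4 CPM). Rab29, which can recruit LRRK2 to membranes, had 11 and 9 reads. Rab7b, Rab42 and Rab32 had 5, 3 and 1 reads in replicate 1 and 4, 1 and 1 in replicate 2.

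Recycling endosome Rabs numbered 8 and summed to 752 ± 52.2 CPM. Rab11b had 289 reads (336 CPM) in replicate 1 and 243 reads (343 CPM) in replicate 2 (chr17:33742484-33760530, minus strand). Rab14, which carries cargo between the trans-Golgi network and endosomes, had 235 reads in each library (274 and 332 CPM; chr2:35180205-35201120, minus strand). Rab11a, the more studied paralog of Rab11b and like it a Rab of slow recycling to the surface, had 48 and 49 reads (55.9 and 69.2 CPM). Rab11b thus stood above Rab11a in both libraries, with ranges far apart. Rab35, a Rab of fast recycling at the plasma membrane, had 16 and 17 reads (18.6 and 24.02 CPM). Rab4a and Rab4b, also of fast recycling, had 12 and 9 reads in replicate 1 and 5 and 7 in replicate 2. Rab17, known from epithelial cells, and Rab15 had 3 reads or fewer in each library.

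Early endosome Rabs numbered 7 and summed to 500.2 ± 7.90 CPM. Rab21, which binds integrins during their uptake, led them with 145 reads (169 CPM) in replicate 1 and 125 reads (177 CPM) in replicate 2 (chr10:115287084-115315594, minus strand). Rab22a, which acts in early endosome sorting, had 123 and 106 reads (143 and 149.8 CPM). The 3 Rab5 genes encode the Rab that defines early endosomes and controls their fusion. Rab5a had 62 and 61 reads (72.2 and 86.2 CPM) and Rab5b had 45 and 28 (52.4 and 39.6 CPM). Rab5c had 1 read in replicate 1 (1.16 CPM, below the floor) and 5 in replicate 2 (7.06 CPM, above it). Annotated models held 0 and 2 of these reads, and the others lay on genomic models. Rab20, known from phagosomes, had 29 and 18 reads (33.8 and 25.4 CPM), and Rab31, which acts between the trans-Golgi network and endosomes, had 20 and 15 (23.3 and 21.2 CPM). Rab21 and Rab22a each exceeded Rab5a in both libraries.

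Exocytic Rabs numbered 8 and summed to 416 ± 16.3 CPM, most of it from 1 gene. Rab10, which brings glucose transporter vesicles to the surface of adipocytes, had 226 reads (263 CPM) in replicate 1 and 183 reads (259 CPM) in replicate 2 (chr12:3247428-3309969, minus strand). Rab8a, its close relative in delivery to the plasma membrane and the cilium, had 40 and 34 reads (46.6 and 48.0 CPM). Rab3a, the synaptic vesicle Rab of neurons, had 45 and 36 reads (52.4 and 50.9 CPM). Of the 5 neuron markers, 1 was read in both libraries and Syt1 was at 0, with a summed level of 9.31 CPM in replicate 1 and 7.06 CPM in replicate 2. Their part in the Rab3a level was not tested. Rab3d, known from secretory granules, had 38 and 23 reads (44.2 and 32.5 CPM). Rab8b, Rab27b, Rab27a and Rab13, of which the Rab27 genes dock lysosome-related organelles, had 5 reads or fewer in each library.

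The remaining 3 members are not placed on the main routes. Rab28, known from cilia and photoreceptors, was among the 10 highest with 224 reads (261 CPM) in replicate 1 and 166 reads (235 CPM) in replicate 2 (chr5:41624976-41708157, minus strand). Rab40c, which carries a SOCS box and joins a ubiquitin ligase, had 9 and 10 reads. Rab23, a negative regulator of Hedgehog signalling, had 5 and 7 reads.

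In total 11 members had fewer than 10 reads over both libraries, from 2 to 9 reads. They were Rab7b, Rab8b, Rab2b, Rab27b, Rab5c, Rab13, Rab27a, Rab42, Rab17, Rab15 and Rab32, and they held 37 reads in replicate 1 and 27 in replicate 2. A read in only 1 library was found for Rab36 and Rab39b (replicate 1) and for Rab3b and Rab40b (replicate 2), with 3 reads at most. No read was found for Rab3c, Rab6b, Rab9b, Rab19, Rab25, Rab26, Rab33a, Rab37, Rab38, Rab39 and Rab44. These include genes best known from neurons (Rab3c, Rab6b), epithelia (Rab25) and melanocytes (Rab38), and the depth sets their upper limit at the 3.49 and 4.24 CPM given above. Among the 25 highest members, 11 of the 24 neighbouring pairs in the order of mean CPM had ranges over the libraries that did not overlap, so the order is resolved only in part.

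Within a paralog group 1 gene usually held most of the reads. Rab2a held 98.9% of Rab2 reads in replicate 1 and 98.7% in replicate 2, against 4 reads of Rab2b in each. Rab7 held 98.4% in both libraries, against Rab7b. Rab11b held 85.8% (Wilson 81.6 to 89.1) and 83.2% (78.5 to 87.1), against Rab11a. Rab8a held 88.9% and 89.5% of 45 and 38 reads, against Rab8b. All Rab6, Rab9 and Rab33 reads came from Rab6a, Rab9 and Rab33b, and Rab22a held 86.01% and 87.6% of its reads with Rab31. Reads were shared more evenly in 4 groups. Rab1b held 66.9% (61.5 to 71.9) in replicate 1 and 62.6% (57.2 to 67.7) in replicate 2, with Rab1a holding the rest. Rab5a held 57.4% and 64.9% while Rab5b held 41.7% and 29.8%. Rab3a held 54.2% and 59.0% while Rab3d held 45.8% and 37.7%, but on annotated models alone the mean share was 47.8% for Rab3a and 49.9% for Rab3d. Rab4a and Rab4b could not be ordered, since Rab4a held 57.1% of 21 reads and 41.7% of 12. Rab40c held all 9 reads of its group in replicate 1 and 76.9% of 13 in replicate 2. The coding sequences of these paralogs were 77.2% identical between Rab1a and Rab1b, 75.2% between Rab11a and Rab11b and 74.3% between Rab5a and Rab5b.

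**Figure D2:**
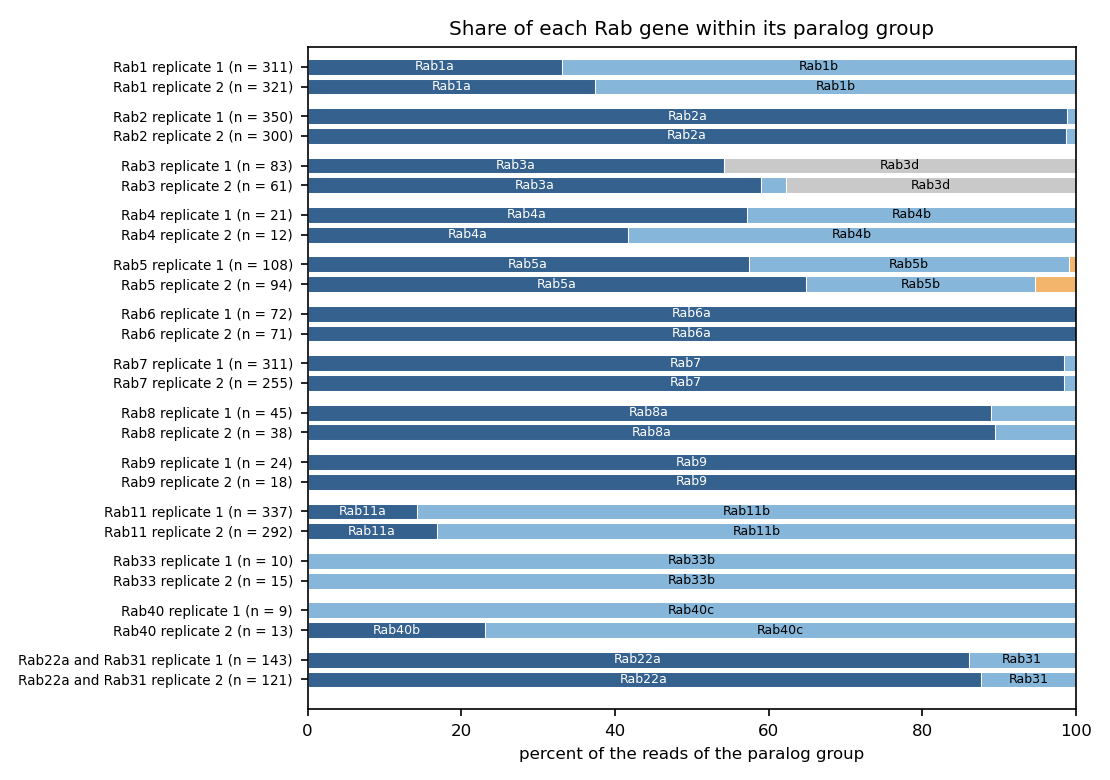
Share of reads held by each gene within its paralog group in percent, as 1 stacked bar per library with replicate 1 above replicate 2 and the reads of the group as n. Unlabelled segments are Rab2b, Rab3b, Rab5c, Rab7b and Rab8b. Rab2a and Rab7 fill their bars almost whole, whereas Rab1, Rab3, Rab4 and Rab5 are split.

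No Rab gene that could be tested passed as different between the libraries. Of the 44 members, 33 had at least 10 reads in total and entered a two-sided exact binomial test of replicate 1 against replicate 2, given the library totals and run over all 9334 genes with that many reads, with Benjamini-Hochberg adjustment. A call needed both an adjusted p under 0.05 and a fold of 2 or more, and 0 of 33 members were called, beside 0.321% of all tested genes. By direction, 0 were higher in replicate 1, beside 0.171%, and 0 were lower, beside 0.15%. Without the fold minimum the count was still 0, beside 1.15%. At an unadjusted p below 0.05 there were 2, Rab1a and Rab14, which is 6.06% of the members beside 8.53% of all tested genes. The test compares the reads of these 2 libraries and not conditions. Rab1a was lower in replicate 1, with 103 reads against 120 and a log2 ratio of -0.50 (exact p = 0.0105, adjusted p = 0.304). Rab14 had a log2 ratio of -0.28 (exact p = 0.0370, adjusted p = 0.525). Of the 33 members, 28 lay within 1.5-fold (84.8%, against 77.7% of all tested genes), and the median log2 ratio was -0.03, against -0.05 over all genes. The 14 members with at least 100 reads in total ranged in fold from 0.707 to 1.12, and their exact 95% intervals lay between 0.538 and 1.39. The ratios nearest the fold of 2 belonged to Rab4a (1.98, 0.648 to 7.16) and Rab30 (1.96, 0.818 to 5.17), both with few reads. For Rab30, single-exon models held 9 of 19 reads in replicate 1 and 1 of 8 in replicate 2, and annotated models held 9 and 5.

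**Figure D3:**
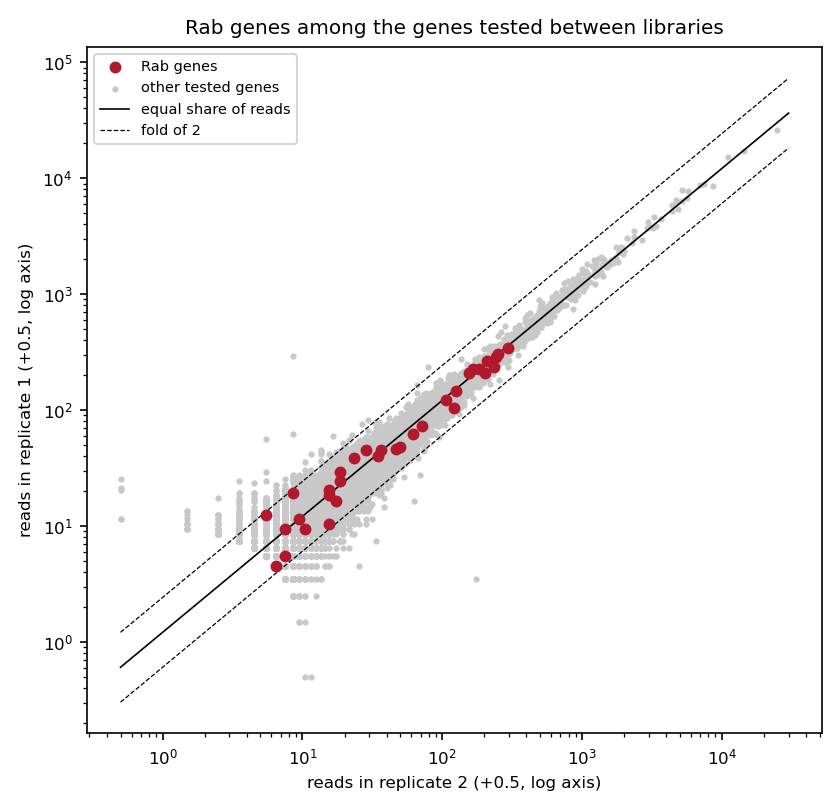
Reads in replicate 1 against reads in replicate 2 for the 9334 tested genes (log axes, 0.5 added), with 33 Rab genes in red, a solid line for an equal share of reads and dashed lines for a fold of 2. All 33 Rab genes lie between the dashed lines.

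Genes of the proteins that run the Rab cycle were read too, on all 6 lists examined. None of the tested genes on these lists was called between the libraries, beside the 0.321% of all genes, and an unadjusted p below 0.05 was found for 3 of 28 exchange factors, 5 of 29 effectors and no gene of the other lists, beside 8.53% of all tested genes. The median log2 ratio was -0.28 for prenylation and escort, -0.37 for GDP dissociation inhibitors and acceptors, -0.12 for exchange factors, -0.06 for GTPase-activating proteins and -0.17 for effectors, against -0.05 over all genes. On the sixth list, the kinases and phosphatase of the Rab switch region, 2 of 3 genes were tested, with a median of -1.27. Of the 5 genes on the prenylation and escort list 3 were tested. Rabggtb, the catalytic subunit of Rab geranylgeranyl transferase, had 34 reads in replicate 1 and 29 in replicate 2 (39.6 and 41.0 CPM). Rabif, whose part in prenylation or escort was not examined here, had 24 reads in each library. Its log2 ratio of -0.28 is the median of the list. Rabggta, the partner subunit of Rabggtb, had 14 and 16 reads. The Rab escort proteins Chm and Chml had 3 and 4 reads in replicate 1 and 6 and 2 in replicate 2, too few for the test, and were named after their values were seen. All 8 GDP dissociation inhibitors and membrane acceptors were tested, and Gdi2, a GDP dissociation inhibitor, had 138 reads in replicate 1 and 137 in replicate 2 (161 and 194 CPM). Rabac1, an acceptor that binds prenylated Rabs, had 138 and 130 reads.

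Among 39 exchange factors, Rab3ip, which activates Rab8, was highest with 149 reads (173 CPM) in replicate 1 and 91 reads (129 CPM) in replicate 2. It was followed by the DENN-domain gene Dennd5a with 105 and 89 reads and by Trappc9, a subunit of the TRAPP tethering complex, with 63 and 83. Of 26 GTPase-activating protein genes 23 were tested, with Tbc1d15, which acts on Rab7, highest at 63 and 50 reads, then Tbc1d17 at 55 and 47. Tbc1d4, the Akt substrate that restrains glucose transporter traffic through Rab10 and its relatives, had 43 and 40 reads. It was named after its values were seen. Effectors were led by Rilpl1, which binds Rabs phosphorylated by LRRK2, with 280 and 233 reads (326 and 329 CPM). Ehbp1l1, a Rab8 effector, had 197 and 160 reads, Optn, an autophagy receptor that binds Rab8, had 141 and 108, and Bicd2, the dynein adaptor of Rab6, had 127 in each. LRRK2 itself was low, with 6 reads in replicate 1 and 10 in replicate 2 (Lrrk2, 6.98 and 14.1 CPM).

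On annotated models, most Rab genes with enough reads were read mainly from 1 transcript form. In 19 members both libraries had 20 or more reads on annotated models. Of these, 10 had 1 annotated model with reads (52.6%, against 45.0% of 3490 such genes). In 16 the leading model held at least 95% of the reads on annotated models (84.2%, against 70.2%). Reads on all other models are left out of that share. It therefore does not show the second splicing forms of Rab24 and Rab3a or the single-exon reads of Rab2a, which are given below. A second model with at least 20% of annotated reads in both libraries was found in 1 member, Rab6a, and in 10.9% of all such genes. Of the 205 annotated transcripts of the members, 65 had a read. Among the 9 members with more than 1 model, Fisher's exact test of the leading model called 0 between libraries, beside 0.0521% of 1920 genes tested, and 0 at an unadjusted p below 0.05, beside 2.66%.

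Rab6a used both of its exchangeable exons. The downstream exon, of Rab6a-201, was in 36 of 63 reads that covered the choice in replicate 1 (57.1%, Wilson 44.9 to 68.6) and in 47 of 64 in replicate 2 (73.4%, 61.5 to 82.7). The upstream exon, of Rab6a-202, was in the other 27 and 17 reads, and no read held both. The difference between libraries did not pass, with an exact Fisher p of 0.0633 on annotated models and an adjusted p of 1.0. As the sequences above show, the exons lie 66 bases apart, are 71.7% identical and begin at coding base 184. Their 30 differences touch 24 codons. Most of these 24 codons encode the same amino acid in both exons, so the count of codons is not a count of changed residues. In human cells the corresponding forms are known as RAB6A and RAB6A′, which bind partly different partners. Total coding length was 624 bases in both.

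Rab28 was read mainly with its extra exon. The 95-base exon was included in 201 of 224 reads in replicate 1 (89.7%, 85.1 to 93.1) and in 143 of 164 in replicate 2 (87.2%, 81.2 to 91.5). The first 573 coding bases are shared by both forms. With the exon, 87 coding bases and a TAG stop follow, for 660 coding bases in all. Without it, 90 coding bases follow in the last exon, for 663. Both ends keep 1 cysteine codon in the fourth-last place, as printed above, so the form of the ending is shared while the codons before it differ. The exon-included model Rab28-203 is 1 of only 2 leading models, with Rab1a-201, that the annotation does not mark as the principal isoform, against 42 that it does.

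Rab24 and Rab3a each had a second splicing form in both libraries. In Rab24, intron 5 was kept, as it is in another annotated transcript of the gene, in 7 of 44 reads that removed both flanking introns in replicate 1 (15.9%, 7.93 to 29.4) and in 11 of 41 in replicate 2 (26.8%, 15.7 to 41.9). The intron has 191 bases, and in the frame of Rab24-201 a TAA stop begins at its base 12. The Rab24 level of 46 reads in each library therefore includes these reads. In Rab3a, a donor site 6 bases from that of Rab3a-201 was used in 11 of 39 reads in replicate 1 (28.2%, 16.5 to 43.8) and in 9 of 31 in replicate 2 (29.0%, 16.1 to 46.6). This donor is unannotated and lay 1 base from the donor of Rab3a-204, which had 0 reads. The genome sequence around it was not examined, so its exact position was not tested. The intervals of both libraries overlapped for each of these choices.

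**Figure D4:**
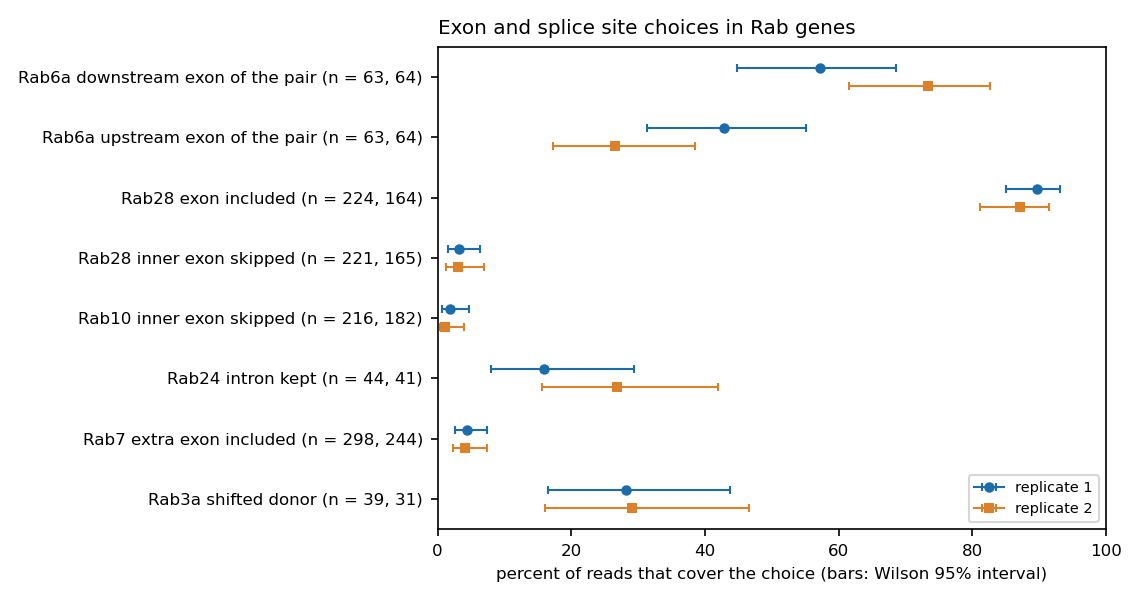
Share of reads, in percent of the reads that cover the choice, for 8 exon, intron and splice site choices in Rab genes, with circles for replicate 1, squares for replicate 2 and Wilson 95% intervals as bars. The Rab3a donor, with the fewest reads, has the widest interval in each library, and the intervals of the libraries overlap in every row.

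Rab reads matched the annotation more often than reads of protein-coding genes at large. Full annotated models held 88.5% of Rab reads in replicate 1 (Wilson 87.3 to 89.5) and 90.3% in replicate 2 (89.2 to 91.4), against 75.9% and 75.6% for all protein-coding genes. Incomplete models, whose introns are part of an annotated chain or which lie inside an annotated exon, held 5.18% and 1.71% of Rab reads, against 11.05% and 10.2%. Unannotated splice combinations of known sites held 1.52% and 1.71% of Rab reads, against 4.97% and 5.54%. Models with an unannotated site held 1.88% and 1.78%, against 3.12% and 3.53%. Genomic models, which match no spliced form, held 2.97% and 4.48%, against 4.98% and 5.08%. These shares describe the list and were not tested against other genes. Over the 20 members with at least 20 reads in each library, the annotated share differed between libraries in 0 at an adjusted p below 0.05 (Fisher's exact test), beside 0.129% of 4651 genes. At an unadjusted p below 0.05 there were 2, Rab2a and Rab21, beside 4.58% of all genes tested.

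**Figure D5:**
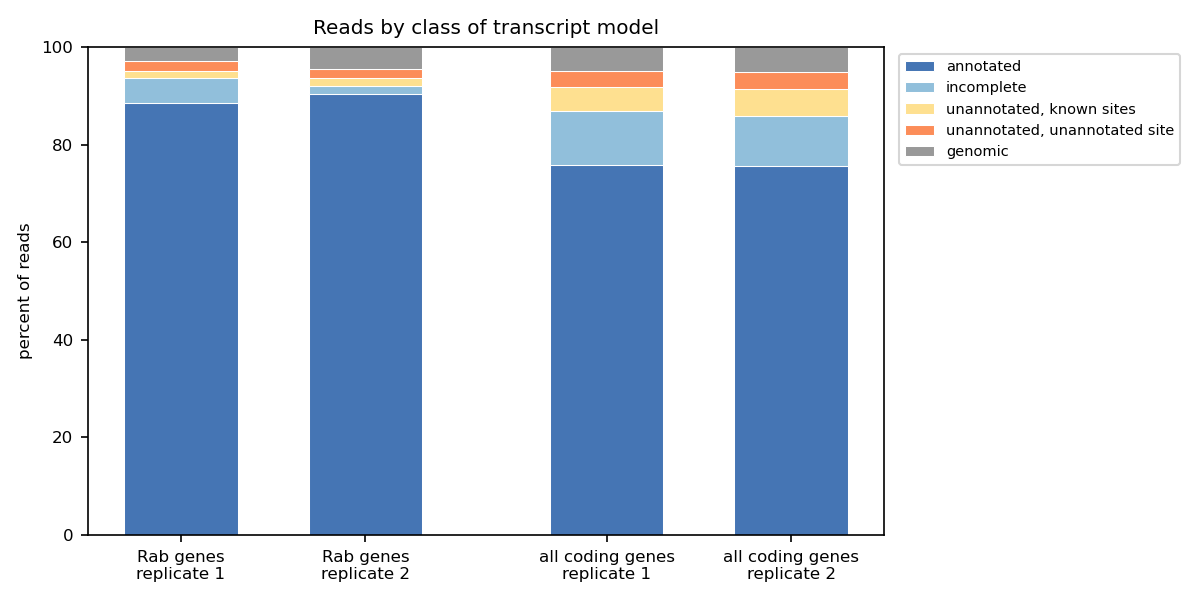
Reads by class of transcript model in percent of the reads of the set, for Rab genes and for all protein-coding genes in replicates 1 and 2. The annotated class makes up 88.5% and 90.3% of the Rab bars, against 75.9% and 75.6% of the bars of all protein-coding genes.

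Rab2a held much of the difference between libraries in the incomplete and genomic classes. Single-exon models held 106 of its 346 reads in replicate 1 (30.6%) and 60 of 296 in replicate 2 (20.3%). In replicate 1, 101 of them lay on 1 incomplete model at chr4:8606493-8606665, and in replicate 2, 58 lay on 1 genomic model at chr4:8606408-8606797 that contains that stretch. The class names therefore separate models of nearly the same place. The ends of such models are those of the deposited annotation and need not be the ends of reads. Annotated models of Rab2a had 236 reads in each library, so that its annotated share was 68.2% (63.1 to 72.9) in replicate 1 and 79.7% (74.8 to 83.9) in replicate 2 (Fisher's exact adjusted p = 0.373). Over all members 216 reads in replicate 1 and 142 in replicate 2 were on single-exon models, and 213 and 136 of them touched the last exon of the leading model. Rab1b had 17 and 18 such reads. Rab9 and Rab33b, with at least 20 reads in total, were read on annotated models alone.

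Near-identical or overlapping genes could take reads from a few members. Rab11b-ps2, a processed pseudogene whose 654 bases match Rab11b at 653, had 9 reads in replicate 1 and 18 in replicate 2, so the Rab11b level is uncertain by that number. The copies of Rab2a (Gm5865), Rab5b (Gm13991), Rab6a (Gm13082), Rab7 (Rab7-ps1), Rab8b (Gm20689) and Rab9 (Rab9b-ps1), at least 95% identical over at least 80% of their length, had no read. Gm45140, whose 6 reads in replicate 1 and 1 in replicate 2 all overlap exons of Rab43, makes the 4 and 6 reads of Rab43 uncertain. Gm20388 spans Rab4a on the same strand with 39 and 38 reads, of which 0 and 1 overlapped a Rab4a exon. Rab10os, the annotated antisense gene of Rab10, had 21 and 19 reads on the opposite strand. Further annotated genes overlapped other members. Among them, Ofd1 lay on the strand of Rab9 with 6 reads in replicate 1 and 0 in replicate 2. On the opposite strand, Rpl23a at Rab34 had 120 and 0 reads and Tox4 at Rab2b had 38 and 30. Whether such genes took reads from these members was not tested.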

How the data were processed

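The authors deposited counts of long reads per transcript model, 1 library per file, per the file headers. TALON assigned reads to GENCODE M21 transcripts or to new models on mm10, per the deposited annotations and text. Model coordinates, exon numbers and lengths came from the same deposited files. Library preparation, aligner, versions and filters are not given in the sources used here. Counts were summed per gene, spike-ins left out and CPM taken on reads of annotated genes. Log2 ratios are replicate 1 over replicate 2 with 0.5 reads added. Tests were exact (scipy 1.17.1). They were tried on simulated reads that varied by counting error alone, as the tests assume, so further variation between libraries was not covered. edgeR 4.0.16 and DESeq2 1.42.0 gave alternative scaling factors, and edgeR's exact test with preset variation was an alternative, since 1 library against 1 leaves its quasi-likelihood test no residual degrees of freedom. Copies were found with minimap2 and coding ends read from GENCODE M21 transcripts on GRCm38. Named were all members, the 25 highest with values, paralog groups with at least 20 reads, members with a second model of at least 20% and the highest genes of each regulator list. Members and lists were chosen with earlier results of these data known. Proteins were not analysed here.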

Additional observations from a re-analysis of the deposited data

Results flagged for a closer look

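Outside the reads of the Rab genes, models of unannotated genes on the strand opposite a member were read above the limit that a count of 0 allows (more than 3 reads) in both libraries at 6 members. Opposite Rab7 there were 12 reads in replicate 1 and 18 in replicate 2, 30 in all. Opposite Rab1a there were 7 and 9 (16), opposite Rab31 9 and 7 (16), opposite Rab12 7 and 8 (15), opposite Rab30 5 and 7 (12) and opposite Rab8b 5 and 5 (10). The counts opposite Rab8b matched or exceeded its own 5 and 4 reads. In all, 29 members had such a gene in at least 1 library, with 73 reads in replicate 1 and 90 in replicate 2. Strand is that of the deposited models, and their source was not tested.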

How the results depend on the processing

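No paired analysis was possible because there was 1 group of 2 libraries and nothing to pair. The count of 0 Rab genes called between libraries was the same under 9 alternatives and 1 more chosen after seeing the data, which left out single-exon incomplete and genomic models. Over all genes the count was 30, and it was 15 on annotated models only, 107 with no fold minimum, and 12 and 4 with edgeR's exact test at a preset biological coefficient of variation of 0.1 and 0.2. Under the other settings it lay between 22 and 29. On annotated models only, the Rab share was 0.461% (0.391% in the main analysis) and the median member level, averaged over the libraries, 29.6 CPM (25.2 CPM). The mean paralog shares were then 99.4% for Rab2a (98.8%), 90.2% for Rab22a (86.8%), 47.8% for Rab3a (56.6%), 68.1% for Rab5a (61.2%), 98.3% for Rab7 (98.4%) and 92.9% for Rab8a (89.2%). The mean share of Rab3a thus no longer exceeded that of Rab3d. By library, Rab3a had 29 annotated reads against 33 of Rab3d in replicate 1 and 22 against 21 in replicate 2. This setting leaves out the Rab3a reads with the unannotated donor. Without genomic models, 57 genes in place of 6 differed in annotated share, Rab2a among them with 69.2% of 341 reads in replicate 1 and 100% of 236 in replicate 2, as the class names of its single-exon reads differ by library. Without 1 replicate each value is that of the other library, so such ranges repeat the spread between the libraries and are no further check. The Rab share was then 0.384% to 0.397%, the median level 24.7 to 25.6 CPM and the annotated share 88.5% to 90.3%. The leading paralog shares without 1 replicate were 62.6% to 66.9% for Rab1b, 83.2% to 85.8% for Rab11b, 98.7% to 98.9% for Rab2a, 86.01% to 87.6% for Rab22a, 54.2% to 59.0% for Rab3a, 57.4% to 64.9% for Rab5a, 98.4% for Rab7 and 88.9% to 89.5% for Rab8a. The other causes were not tested. Depth limits every member under 10 reads to presence.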

Other observations

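Exon chains that no annotated transcript has took few Rab reads, and some occurred in both libraries. There were 65 unannotated spliced chains in replicate 1 and 59 in replicate 2, of which 18, in 14 members, occurred in both. The shared chains held 57 of 112 such reads in replicate 1 (50.9%) and 47 of 98 in replicate 2 (48.0%). Rab7 had an 87-base exon before its coding start, as in the annotated Rab7-203, in 13 of 298 reads in replicate 1 (4.36%) and 10 of 244 in replicate 2 (4.10%). Rab28 skipped its exon 3 of 89 bases in 7 of 221 and 5 of 165 reads (3.17% and 3.03%). Rab10 skipped its exon 3 of 139 bases in 4 of 216 and 2 of 182 reads (1.85% and 1.10%). Neither exon length is a multiple of 3. The intervals of the libraries overlapped in each case, and these genes were named after their values were seen.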
